A study of Mus musculus with 6 samples.

Results

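Prostaglandins are lipid signals made on demand from arachidonic acid. A phospholipase frees the acid from membranes, a cyclooxygenase turns it into the short-lived prostaglandin H2, and terminal synthases convert that into prostaglandin E2, prostacyclin and others, which act on G protein-coupled receptors of the same or neighbouring cells until a dehydrogenase inactivates them. In skeletal muscle, cyclooxygenase-2 and prostaglandin E2 are known for their part in repair and in the expansion of muscle stem cells, and fibroblast-like cells are among the sources of these lipids. The genes described here are Pla2g4a (cytosolic phospholipase A2), Ptgs1 and Ptgs2 (cyclooxygenase-1 and -2), the terminal synthase genes Ptges, Ptges3 and Ptgis, the degrading enzyme gene Hpgd, and the receptor genes Ptger2, Ptger4 and Ptgfr. These 10 genes were chosen by symbol from 54100 genes in the count table, and each symbol stood on 1 row.

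The messenger RNA came from fibro-adipogenic progenitors (FAPs), the Pdgfra+ mesenchymal progenitors of skeletal muscle, sorted from plantaris muscle of C57BL/6 mice at 1000 cells per tube. The comparison is of 3 sham libraries with 3 libraries of overloaded muscle, and both groups were of the same strain, with no transgene or drug named in the labels. The method and duration of overload, the age of the mice and whether each library came from its own mouse are not stated in the sources at hand, so the p-values measure only how these libraries vary, which may be technical. Libraries followed a CEL-Seq2 type of protocol, which tags transcripts near their 3' end.

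The sham libraries held 500402 to 754456 counts and the overloaded ones 850857 to 1124210, and levels are given as CPM, counts scaled to a total of 1000000 per library with TMM factors, which correct for differences in composition. At this depth 1 count stood for 1.35 to 2.07 CPM in sham libraries and 0.962 to 1.25 CPM in the overloaded ones. All 12 FAP markers examined were detected and tested, and Pdgfra itself had between 332 and 759 counts per library. Of the 12, 3 were called higher in overloaded muscle (Col1a1, Col3a1 and Mfap5) and 6 lower, against 15% and 14.3% of all genes tested. Summed counts fell from sham to overloaded, in spite of the deeper overloaded libraries, for Clec3b (720 to 202), Dpp4 (152 to 49) and Pi16 (311 to 139). They also fell for Dcn (39520 to 22167), Gsn (38411 to 25286), Pdgfra (1672 to 1619) and Cd34 (1148 to 1133). A fall in summed counts is not by itself a call. The 6 tenocyte markers summed to 147 ± 19.4 CPM in sham libraries and 3976 ± 526 CPM in the overloaded ones, but without Thbs4 to 48.0 ± 7.74 and 61.3 ± 26.4 CPM. The 7 satellite cell markers summed to 81.2 ± 4.69 and 130 ± 25.9 CPM, but without Vcam1 to 29.4 ± 12.9 and 16.3 ± 12.05 CPM. The part of these shifts in the results was not tested, and the genes left out were picked after their values were seen. Of 13 leukocyte markers 8 had 0 counts in every library, among them Lyz2, Adgre1, C1qa and Tyrobp. Olfactory and vomeronasal receptor genes, whose reads serve here as a measure of background, took 781 to 1819 counts of every 1000000 in the sham libraries and 232 to 1092 in the overloaded ones. In such bulk samples, fewer cells expressing a gene and less RNA per cell cannot be told apart.

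In overloaded FAPs, transcripts for the phospholipase (Pla2g4a), for cyclooxygenase-2 (Ptgs2), for the prostacyclin synthase (Ptgis) and for the constitutive prostaglandin E synthase (Ptges3) rose, whereas those for cyclooxygenase-1 (Ptgs1) and for the inducible prostaglandin E synthase (Ptges) fell. Ptgs2 went from 485 ± 56.3 to 1056 ± 287 CPM, Ptgis from 5.81 ± 1.60 to 28.3 ± 10.4 CPM, and Ptges from 76.2 ± 10.1 to 31.1 ± 0.872 CPM (mean ± SD of 3 libraries). Of the 10 genes, 8 had enough counts to test, and of these 4 were called higher, 2 lower and 2, the receptors Ptger4 and Ptgfr, were not called (quasi-likelihood test of edgeR, adjusted p under 0.05 by Benjamini-Hochberg over 7207 genes). Over all genes tested 29.3% were called, 15% higher and 14.3% lower, so a call in this comparison is common. The median log2 fold change of the 8 genes was 0.71 and that of all genes tested was -0.02. Sham and overloaded libraries were fully apart for 7 of the 8 genes, the exception being Ptgfr, with 5 of them higher and 2 lower in every overloaded library. Among all genes tested 41.5% had groups that did not overlap, or 21.2% higher and 20.3% lower. With the share of olfactory and vomeronasal receptor reads as a covariate 3 of the 8 genes were called, namely Ptgis, Ptges3 and Ptges, and 12.1% of all genes tested.

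**Figure D1:**
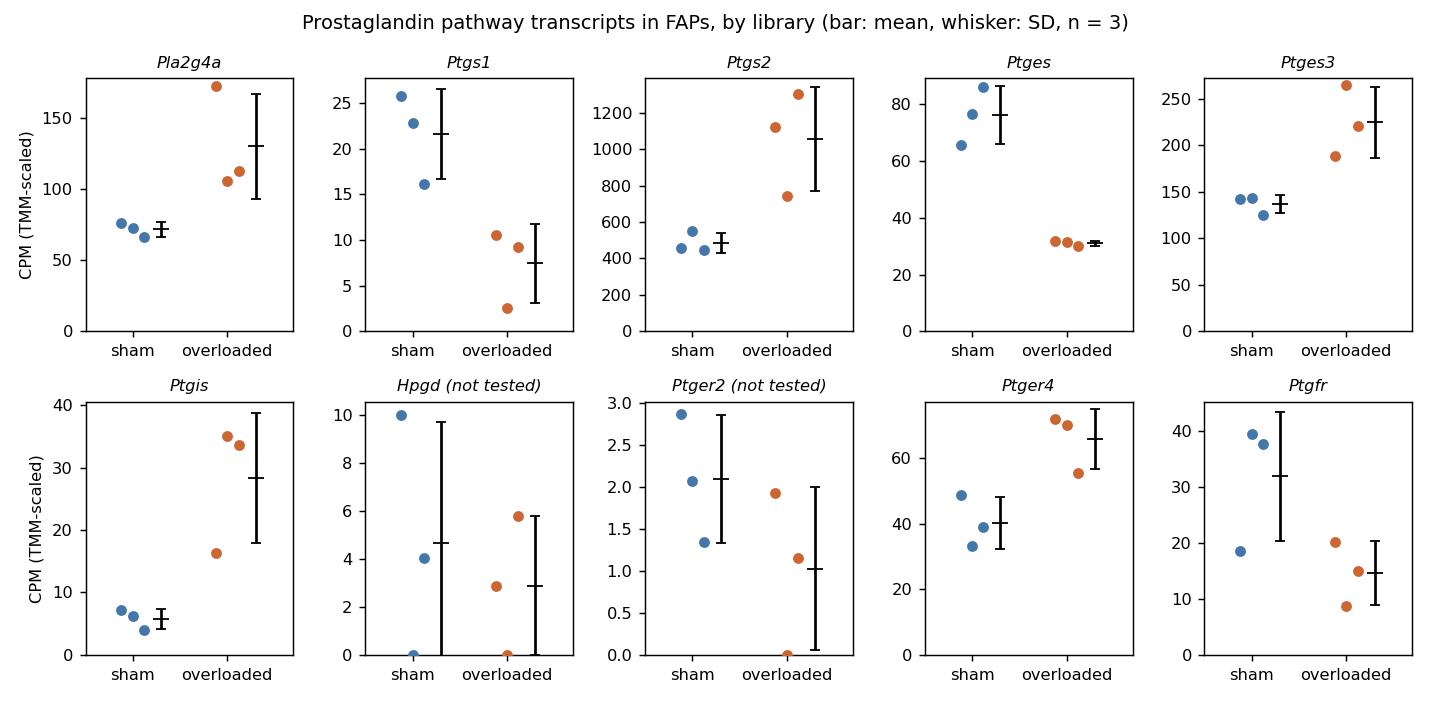
Level of each gene in CPM (TMM-scaled, linear axis from 0) in the 3 sham (blue) and 3 overloaded (orange) libraries, with the mean (bar) and SD (whisker, cut at 0) beside the points. Ptges libraries sit between 65.9 and 86.1 CPM in sham libraries and between 30.1 and 31.7 CPM in overloaded muscle, while Hpgd and Ptger2 lie near the limit of a few counts.

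The first step of the pathway is the release of arachidonic acid. Pla2g4a (ENSMUSG00000056220, GRCm38 chromosome 1, 149829618 to 149961290, minus strand) encodes the calcium-activated phospholipase A2 that prefers arachidonate-bearing phospholipids. It stood at 75.9, 72.6 and 65.9 CPM in sham libraries 1 to 3, and at 172, 105 and 112 CPM in the overloaded ones 1 to 3. The groups did not overlap, and overloaded library 1 was well above the other overloaded libraries. The log2 fold change was 0.87 (SE 0.25, edgeR adjusted p = 0.00889), and without overloaded library 1 it was 0.64 and no longer called (edgeR adjusted p = 0.0747). It was also not called with the receptor-read covariate (log2 fold change 0.70, edgeR adjusted p = 0.232).

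The cyclooxygenases moved in opposite directions. Ptgs2 (ENSMUSG00000032487, chromosome 1, 150100031 to 150108227, plus strand), the isoform that many stimuli induce, stood at 457, 550 and 448 CPM in sham libraries and at 1124, 741 and 1304 CPM in the overloaded ones. Every overloaded library was above every sham library, with overloaded library 2 the lowest of its group. The log2 fold change was 1.13 (SE 0.21, 95% interval 0.69 to 1.56, edgeR adjusted p = 0.000153). By its counts Ptgs2 was the best measured of the 10 genes, with 265 to 333 counts per sham library and 591 to 1169 per overloaded library. With the receptor-read covariate its log2 fold change was 0.71 and it was not called (edgeR adjusted p = 0.124), and in the other 16 alternatives run it was called, with log2 fold changes up to 1.35. The part of the receptor reads in the difference was not tested.

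Ptgs1 (ENSMUSG00000047250, chromosome 2, 36230426 to 36252272, plus strand), the isoform that many cells express at rest, stood at 25.8, 22.8 and 16.1 CPM in sham libraries and at 10.6, 2.51 and 9.25 CPM in the overloaded ones. The groups did not overlap, but the values rest on 41 counts in sham libraries and 21 in the overloaded ones, of which overloaded library 2 held 2. The log2 fold change was -1.47 (SE 0.52, edgeR adjusted p = 0.0306). The call was lost in 7 of the 14 alternatives in which the gene could be tested, among them DESeq2 (adjusted p = 0.0690) and leaving out sham library 1 (edgeR adjusted p = 0.141), sham library 2 (0.0842), overloaded library 2 (0.133) or overloaded library 3 (0.0588), and its direction was the same in all 14. The predicted gene Gm43621, whose exons overlap those of Ptgs1 on the other strand, had 5 counts, all in sham library 1.

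Within each library the 2 cyclooxygenases were also set against each other. A ratio of their counts does not depend on the scaling between libraries, whereas a difference of log2(CPM + 1) still does through the 1 CPM added. There were 17.7, 24.1 and 27.8 Ptgs2 counts for each Ptgs1 count in sham libraries 1 to 3 and 106, 296 and 141 in the overloaded ones 1 to 3. All overloaded values were above all sham values, and overloaded library 2, with 2 Ptgs1 counts, was the highest. Each gene was already fully apart between the groups, in opposite directions, so this separation and the p-value below were fixed in advance. The difference of log2(CPM + 1) between the genes was 4.45 ± 0.32 in sham and 7.11 ± 0.57 in the overloaded ones, a shift of 2.66 (exact two-sided permutation p = 0.1, the smallest that 3 against 3 libraries can give). Over the 9 alternatives run the shift ranged from 2.23, with a pseudocount of 5 CPM, to 2.91, and it was 2.65 with library size only.

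The DNA around the annotated starts of the genes that differed in direction is shown because the cyclooxygenases are known for different promoters, that of Ptgs2 being an inducible one. Each stretch runs from 150 bases before to 30 bases after the RefSeq start (GRCm38.p6), 5' to 3' on the gene's strand, and capitals mark matches on either strand to TGACG, the core of the cAMP response element, or to TTNCNNAA, a loose C/EBP pattern. The regions are chr1:150099881-150100060 on the plus strand for Ptgs2, chr2:36230276-36230455 on the plus strand for Ptgs1 and chr2:30903268-30903447 on the minus strand for Ptges.
Ptgs2: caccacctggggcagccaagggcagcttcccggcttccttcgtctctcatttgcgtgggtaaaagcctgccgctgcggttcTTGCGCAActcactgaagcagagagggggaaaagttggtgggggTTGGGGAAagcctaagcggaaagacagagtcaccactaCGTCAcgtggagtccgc
Ptgs1: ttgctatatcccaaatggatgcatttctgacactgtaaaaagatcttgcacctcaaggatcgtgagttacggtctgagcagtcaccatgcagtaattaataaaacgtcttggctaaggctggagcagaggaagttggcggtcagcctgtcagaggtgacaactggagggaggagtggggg
Ptges: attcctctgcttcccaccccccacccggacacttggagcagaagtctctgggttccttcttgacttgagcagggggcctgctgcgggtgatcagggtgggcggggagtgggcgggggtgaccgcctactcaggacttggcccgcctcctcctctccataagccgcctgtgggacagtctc
The Ptgs2 stretch held the cAMP element core at 14 to 18 bases from the start, where it overlaps 1 of its 3 E-boxes (CANNTG) at 17 to 22, and 2 C/EBP matches, at -69 to -62 and at -25 to -18, the latter overlapping a match to a loose NF-kappaB pattern of 10 bases. The stretches of Ptgs1 and Ptges held neither the TGACG nor the TTNCNNAA letters, but Ptgs1 held 2 E-boxes and Ptges 1 E-box and 1 match to the NF-kappaB pattern, and none of the 3 held a TATA box (TATAAA), the AP-1 pattern (TGANTCA) or the TEAD pattern (GGAATG). Of 32851 RefSeq windows of the same length 15.6% held TGACG, 25.9% TTNCNNAA, 54.1% CANNTG and 39.4% the NF-kappaB pattern, so single matches are common. For Ptges the RefSeq start lies 26566 bases inside the outermost start of the gene in GENCODE M21. Matches are a description of the letters and not of factor binding. The starts are annotated ones and were not checked against those used in FAPs. Bases outside the stretches were not searched, so a pattern absent here may still lie near the true start.

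Pla2g4a and Ptgs2 are neighbours on chromosome 1, with 138740 bases and no protein-coding gene between them, and both rose. The noncoding gene Ptgs2os, which lies in that gap on the opposite strand from Ptgs2 and shares no exon with it, had 4, 8 and 5 counts in sham libraries and 17, 10 and 22 counts in the overloaded ones. After scaling the groups overlapped, and it was not called (log2 fold change 0.98, SE 0.53, edgeR adjusted p = 0.165). It was picked after its values were seen.

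**Figure D2:**
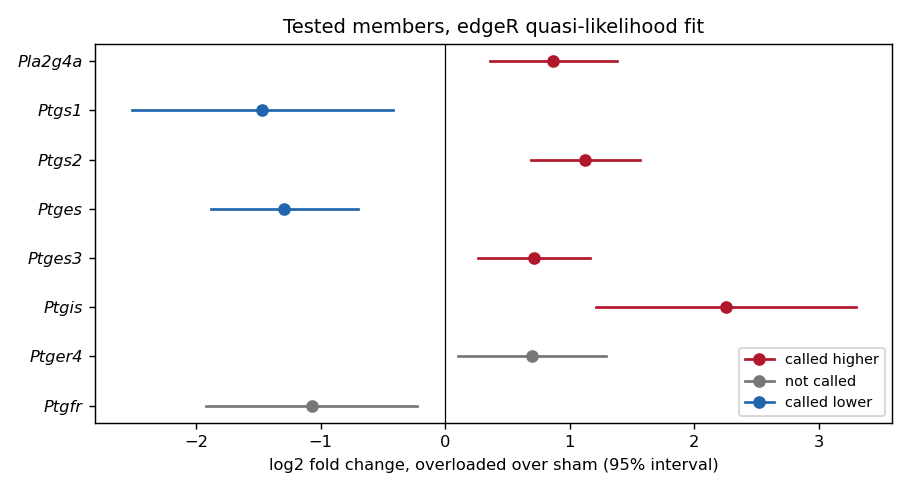
Log2 fold change of the 8 tested genes in overloaded over sham FAPs (points) with unadjusted 95% intervals (lines) from the edgeR fit, coloured by call at an adjusted p under 0.05. Ptgis (2.26), Ptgs2 (1.13), Pla2g4a (0.87) and Ptges3 (0.72) lie to the right of 0 and Ptgs1 (-1.47) and Ptges (-1.29) to the left, while the uncalled receptors Ptger4 and Ptgfr lie on opposite sides.

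The terminal synthases also split. Ptges (ENSMUSG00000050737, chromosome 2, 30889471 to 30929863, minus strand) encodes the membrane-bound prostaglandin E synthase that is often induced together with cyclooxygenase-2. Its level was 65.9, 76.7 and 86.1 CPM in sham libraries and 31.7, 31.4 and 30.1 CPM in the overloaded ones. These levels rest on 46, 37 and 64 counts in sham libraries and 33, 25 and 26 in the overloaded ones. The groups were far apart and the overloaded libraries were nearly equal, but with so few counts their small spread is no measure of precision. Ptges fell by 1.29 on the log2 scale (SE 0.29, edgeR adjusted p = 0.000997), and it was called lower in all 17 alternatives, the highest adjusted p being 0.0334.

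Ptges and Ptgs2 were likewise set against each other within each library, and the groups differed. There were 6.93, 7.16 and 5.20 Ptgs2 counts for each Ptges count in sham and 35.4, 23.6 and 43.3 in the overloaded ones. No overloaded value came near the sham values. Ptgs2 and Ptges were each fully apart in opposite directions, so this separation and the p-value below were also fixed in advance. The difference of log2(CPM + 1), Ptges minus Ptgs2, was -2.66 ± 0.25 in sham and -5.00 ± 0.44 in the overloaded ones, a shift of -2.35 (exact two-sided permutation p = 0.1, again the smallest possible), and it ranged from -2.59 to -2.16 over 9 alternatives.

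Ptges3 (ENSMUSG00000071072, chromosome 10, 128058954 to 128077272, plus strand) encodes a cytosolic prostaglandin E synthase that is better known as p23, a cochaperone of Hsp90. It stood at 142, 143 and 125 CPM in sham libraries and at 189, 265 and 221 CPM in the overloaded ones. The groups did not overlap, and overloaded library 2 was the highest. The log2 fold change was 0.72 (SE 0.22, edgeR adjusted p = 0.0136). The call was lost without sham library 3 (edgeR adjusted p = 0.0620), without overloaded library 2 (0.0648), after thinning all libraries to the smallest total (0.0585) and after thinning with the replicate number as a block (0.0699), and it was called in the other 13 of 17 alternatives. The processed pseudogene Ptges3-ps had 0 counts in every library.

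Ptgis (ENSMUSG00000017969, chromosome 2, 167191805 to 167240604, minus strand) encodes prostacyclin synthase, best known from endothelium and smooth muscle. Its counts were 5, 3 and 3 in sham and 17, 28 and 29 in the overloaded ones, or 7.16, 6.22 and 4.04 CPM against 16.4, 35.1 and 33.5 CPM. All overloaded libraries were higher, with overloaded library 1 the lowest of them. The log2 fold change was 2.26 (SE 0.51, 95% interval 1.21 to 3.30, edgeR adjusted p = 0.00110), and Ptgis was called higher in each of the 14 alternatives that could test it, with values from 2.04 to 2.57. Only 2.61% of all genes tested had a larger absolute log2 fold change.

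Markers of the vascular cells that make prostacyclin were examined beside Ptgis. The 11 endothelial markers summed to 149 to 252 CPM in sham libraries and 79.8 to 140 CPM in the overloaded ones, but Tek alone held 233 of the sham counts and 74 of the overloaded ones, and without Tek, a choice made after seeing the data, the sums were 43.6 to 125 and 54.4 to 117 CPM and overlapped (exact two-sided permutation p = 0.6). The 10 pericyte and smooth muscle markers summed to 156 to 205 CPM in sham libraries and 375 to 561 CPM in the overloaded ones, but without Acta2, which activated fibroblasts also express, to 143 to 195 and 108 to 165 CPM (exact two-sided permutation p = 0.6). The part of vascular cells in the Ptgis difference was not tested. The noncoding gene 1110018N20Rik, whose exons overlap those of Ptgis on the other strand, had 9 counts in sham libraries and 0 in the overloaded ones.

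Set against Ptges in the same library, Ptgis made up 9.80% of the counts of both genes in sham library 1 (exact 95% interval 3.26 to 21.4), 7.5% in library 2 (1.57 to 20.4) and 4.48% in library 3 (0.933 to 12.5). In overloaded libraries 1 to 3 it made up 34% (21.2 to 48.8), 52.8% (38.6 to 66.7) and 52.7% (38.8 to 66.3). The share was higher in all overloaded libraries, and the intervals of overloaded libraries 2 and 3 lie above those of all sham libraries, whereas that of overloaded library 1 touches the interval of sham library 1. This share was picked after the values were seen and is given without a test, and its intervals cover counting error only.

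**Figure D3:**
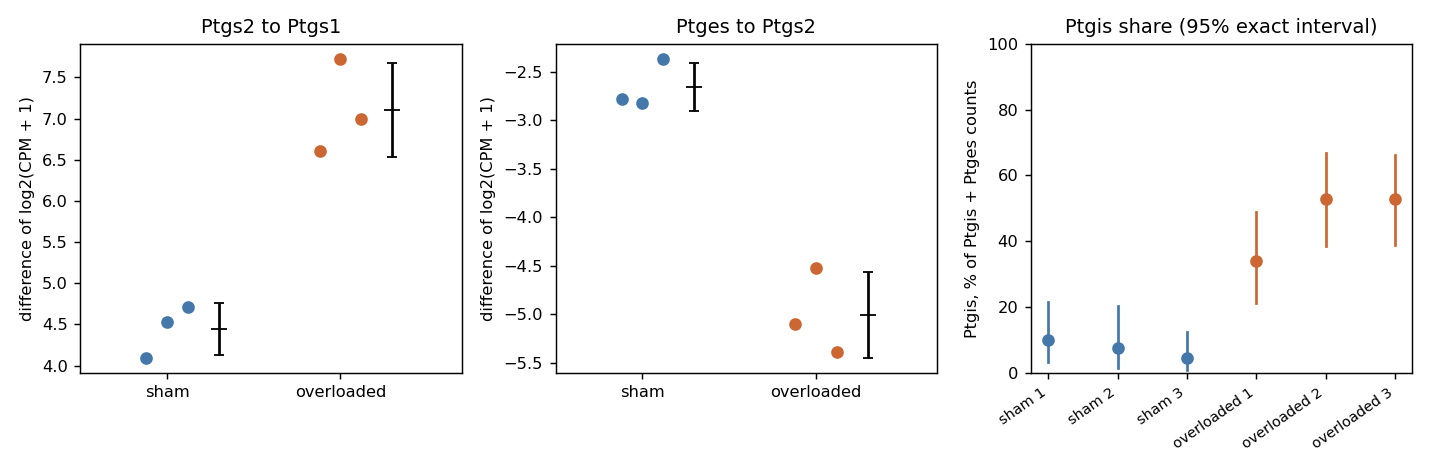
Left and middle, difference of log2(CPM + 1) between Ptgs2 and Ptgs1 and between Ptges and Ptgs2 in each library (points), with the mean and SD of each group (bar and whisker). Right, Ptgis as a percentage of the counts of Ptgis and Ptges per library with exact 95% intervals. The Ptgs2 to Ptgs1 difference rises from a mean of 4.45 to 7.11, the Ptges to Ptgs2 difference drops from -2.66 to -5.00, and the Ptgis share is 4.48% to 9.80% in the sham libraries and 34% to 52.8% in the overloaded ones.

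Degradation could hardly be followed by Hpgd. Hpgd (ENSMUSG00000031613, chromosome 8, 56294585 to 56321043, plus strand) encodes the dehydrogenase that starts the inactivation of prostaglandins. It had 7, 0 and 3 counts in sham libraries and 3, 0 and 5 in the overloaded ones, too few to pass the filter. The groups overlapped fully, and the ratio of the summed, scaled counts, overloaded over sham, was 0.570 with an exact 95% counting interval of 0.195 to 1.60. That interval leaves out variation between libraries, so differences inside it, and some outside it, could have been missed at this depth.

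The receptors gave no call. Ptger4 (ENSMUSG00000039942, chromosome 15, 5206661 to 5244187, minus strand) encodes EP4, a prostaglandin E2 receptor that raises cAMP. It stood at 48.7, 33.2 and 39.0 CPM in sham libraries and at 72.1, 70.2 and 55.5 CPM in the overloaded ones. The groups did not overlap, yet the log2 fold change of 0.70 (SE 0.29, unadjusted 95% interval 0.10 to 1.29) missed the threshold (adjusted p = 0.0706 by edgeR). It passed in 3 of 17 alternatives, without sham library 1 (edgeR adjusted p = 0.0493), after thinning (0.0190) and after thinning with the replicate block (0.0215). Exons of Ttc33, on the other strand, overlap those of Ptger4, and since the use of strand in counting is not known here, counts of the pair may be mixed there. Ttc33 had 20 counts in sham libraries and 26 in the overloaded ones.

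Ptgfr (ENSMUSG00000028036, chromosome 3, 151796502 to 151837630, minus strand) encodes FP, the receptor of prostaglandin F2alpha. It stood at 18.6, 39.4 and 37.7 CPM in sham libraries and at 20.2, 8.78 and 15.04 CPM in the overloaded ones. The groups overlapped, since sham library 1 was below overloaded library 1. Gm43618, whose exons overlap those of Ptgfr on the other strand, had 6 counts in sham libraries and 1 in the overloaded ones. The log2 fold change was -1.07 (SE 0.42, unadjusted 95% interval -1.92 to -0.22) and just missed the threshold (edgeR adjusted p = 0.0509). It was called in 4 of 14 alternatives, when scaled by library size alone (edgeR adjusted p = 0.0378), with upper quartile factors (0.0438), without sham library 1 (0.0257) and without overloaded library 1 (0.0453).

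Ptger2 (ENSMUSG00000037759, chromosome 14, 44988195 to 45003820, plus strand) encodes EP2, the other cAMP-raising receptor of prostaglandin E2. Ptger2 had 2, 1 and 1 counts in sham libraries and 2, 0 and 1 in the overloaded ones and was not tested. Exons of Gm17173 and Gm49364 overlap those of Ptger2 on the other strand. Gm17173 had 1 count in sham libraries and 3 in the overloaded ones, and Gm49364 had 0 in both. The ratio of summed, scaled Ptger2 counts was 0.534 with an exact 95% counting interval of 0.0782 to 3.16, so no direction can be read from it. Among the other receptors listed, the prostacyclin receptor Ptgir was at 30.7 ± 11.2 CPM in sham libraries and 22.7 ± 6.35 CPM in the overloaded ones (log2 fold change -0.38, unadjusted 95% interval -1.15 to 0.40, edgeR adjusted p = 0.497). The EP1 and EP3 genes Ptger1 and Ptger3 had 4 counts each in sham and 5 and 8 counts in the overloaded ones.

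A wider set of 98 symbols from the same and adjoining pathways was drawn up, of which 95 were in the table and 46 could be tested, with 11 called higher and 11 lower and a median log2 fold change of -0.01. Among genes for the release and handling of arachidonate, 3 of 10 tested rose and 0 fell, against 29.3% of all genes called in either direction, so the share called was near the background. Acsl4, the acyl-CoA synthetase that prefers arachidonate, rose from 76.2 ± 2.93 to 396 ± 70.8 CPM (log2 fold change 2.38, SE 0.23). Lpcat3, an acyltransferase that places arachidonate in membrane phospholipids, rose from 14.0 ± 6.05 to 44.0 ± 12.04 CPM (adjusted p = 0.00175 by edgeR, log2 fold change 1.67, SE 0.40), and Plaa, named as a phospholipase A2 activating protein, rose with a log2 fold change of 1.0 (SE 0.34). The Plaa call was lost in 4 of 17 alternatives, with the receptor-read covariate (edgeR adjusted p = 0.0880) and without sham library 2 (0.113), sham library 3 (0.0939) or overloaded library 2 (0.0674).

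Of 4 other synthase genes tested, 1 rose and 2 fell, against 15% called higher and 14.3% lower among all genes tested. Cbr1, a carbonyl reductase that can turn prostaglandin E2 into F2alpha, fell from 61.9 ± 15.3 to 27.7 ± 3.18 CPM (log2 fold change -1.15, SE 0.32, and not called with the receptor-read covariate, edgeR adjusted p = 0.101), and Gstm1, a glutathione transferase, from 1129 ± 123 to 346 ± 72.5 CPM. Akr1b8, an aldo-keto reductase, rose from 12.2 ± 2.0 to 54.4 ± 10.3 CPM. The genes for prostaglandin D, thromboxane and the second membrane-bound E synthase (Ptgds, Hpgds, Tbxas1, Ptges2) had too few counts to test. In the list of inactivation and transport genes 2 were tested and 0 called, against 29.3% called among all genes tested. Zadh2 was at 51.7 ± 11.2 CPM in sham libraries and 31.6 ± 13.3 CPM in the overloaded ones (log2 fold change -0.68, edgeR adjusted p = 0.134). The prostaglandin transporter gene Slco2a1 had 28 counts in sham libraries and 86 in the overloaded ones and was not called (log2 fold change 1.12, edgeR adjusted p = 0.0518). In the leukotriene branch, Lta4h, which makes leukotriene B4, rose with a log2 fold change of 1.34 (SE 0.36), a call that was lost with the receptor-read covariate (0.92, edgeR adjusted p = 0.267) and without overloaded library 3 (0.97, edgeR adjusted p = 0.0644). The epoxide hydrolase gene Ephx1 fell by 1.40 on the log2 scale (SE 0.26), and no other gene of this branch could be tested.

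Among all genes tested 15% were called higher and 14.3% lower, and the wider lists were drawn up with earlier results of these data known. Of 17 tested factors known to act on Ptgs2 transcription or on its mRNA, 4 rose and 8 fell. Those that fell with the lowest adjusted p were Tsc22d3, a glucocorticoid-induced leucine zipper protein, from 276 ± 60.7 to 31.5 ± 8.84 CPM, Egr1, an immediate early transcription factor, from 4617 ± 382 to 1425 ± 117 CPM, Zfp36, which encodes tristetraprolin, a protein that destabilises AU-rich mRNAs, from 2057 ± 115 to 966 ± 139 CPM, and the AP-1 gene Jun, from 6728 ± 1181 to 3038 ± 811 CPM. Each of these was called in all 17 alternatives. The 4 that rose, named after their values were seen, were the cytokine gene Il6 (log2 fold change 0.83), the interleukin-1 receptor gene Il1r1 (0.91), Nfkb1, a subunit of NF-kappaB (0.67), and Cebpb, a C/EBP factor (0.62). None of these 4 was called with the receptor-read covariate, with adjusted p of 0.0900 to 0.317 by edgeR. The Nfkb1 call was also lost without sham library 1 (edgeR adjusted p = 0.112), and the Cebpb call without sham library 2 (0.142), sham library 3 (0.0590) or overloaded library 3 (0.0848). Cebpd, the other C/EBP gene of the list, was called lower, though its groups overlapped (log2 fold change -0.65, edgeR adjusted p = 0.0262).

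Of 9 tested genes of cAMP signalling or response, cAMP being a messenger of EP2 and EP4, 2 rose and 0 fell. The list, which holds the pathway genes Adcy7 and Prkacb, had a median of -0.01 on the log2 scale, while 29.3% of all genes were called. Nr4a2 rose from 152 ± 28.3 to 520 ± 93.8 CPM (log2 fold change 1.77, SE 0.22), and Nr4a1 was at 734 ± 184 and 1077 ± 213 CPM, with overlapping groups and a call (edgeR adjusted p = 0.0472) that was lost in 11 of 17 alternatives, among them DESeq2 (adjusted p = 0.0591).

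**Figure D4:**
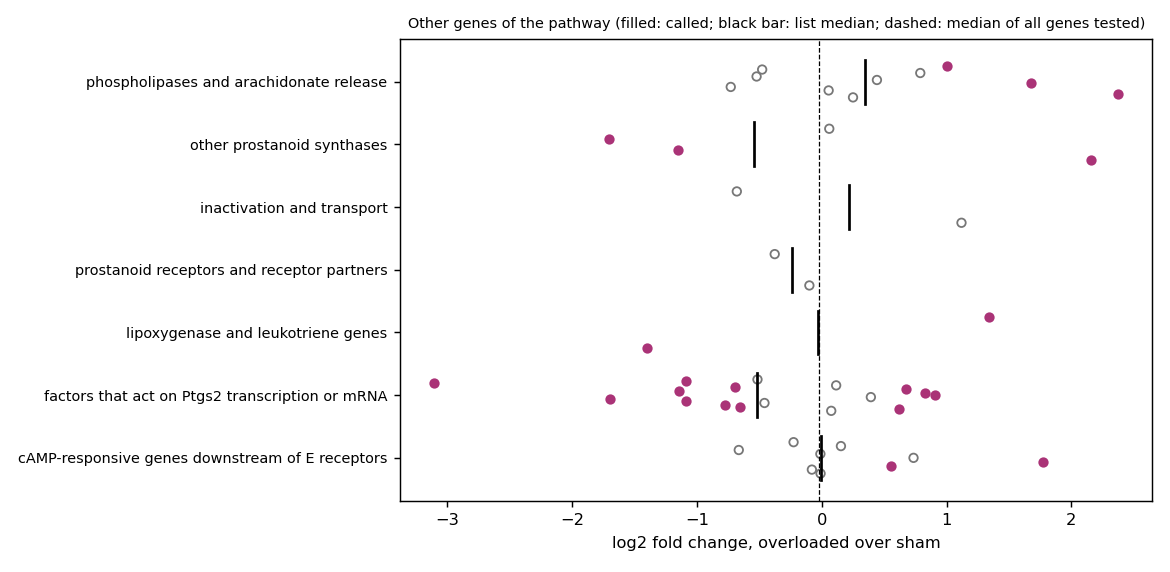
Log2 fold change of the 46 tested genes of the wider lists in overloaded over sham FAPs, by list, with called genes filled, the list median as a black bar and the median of all genes tested (-0.02) as a dashed line. Called arachidonate genes lie to the right, up to 2.38 for Acsl4, and factors acting on Ptgs2 spread on both sides, down to -3.10 for Tsc22d3.

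Leukocytes are a known source of Ptgs1, Ptges and the leukotriene enzymes, and their markers were scarce. The 13 leukocyte markers summed to 18.6 to 31.1 CPM in sham libraries and 5.77 to 15.05 CPM in the overloaded ones (exact two-sided permutation p = 0.1, the smallest possible). The sum was thus lower in the overloaded group, as were Ptgs1 and Ptges. Within the sham group, library 1 had the lowest sum, the most Ptgs1 and the least Ptges. Within the overloaded group, library 2 had the highest sum and the least Ptgs1. The part of leukocytes in the fall of Ptgs1 and Ptges was not tested. The 7 mast cell markers summed to at most 5.73 CPM in sham libraries and 13.8 CPM in the overloaded ones, with 8 of their counts from Cpa3 in overloaded library 2.

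By the similarity of log2(CPM + 1) over the 6 libraries, the 3 genes most like Ptgs2 among 3132 with a mean of at least 50 CPM were Pabpc1, Slc39a14 and Npm1. Their Pearson coefficients ran from 0.993 to 0.999. With 6 libraries in 2 separate groups such values arise readily among so many genes and are given as a description only.

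**Figure D5:**
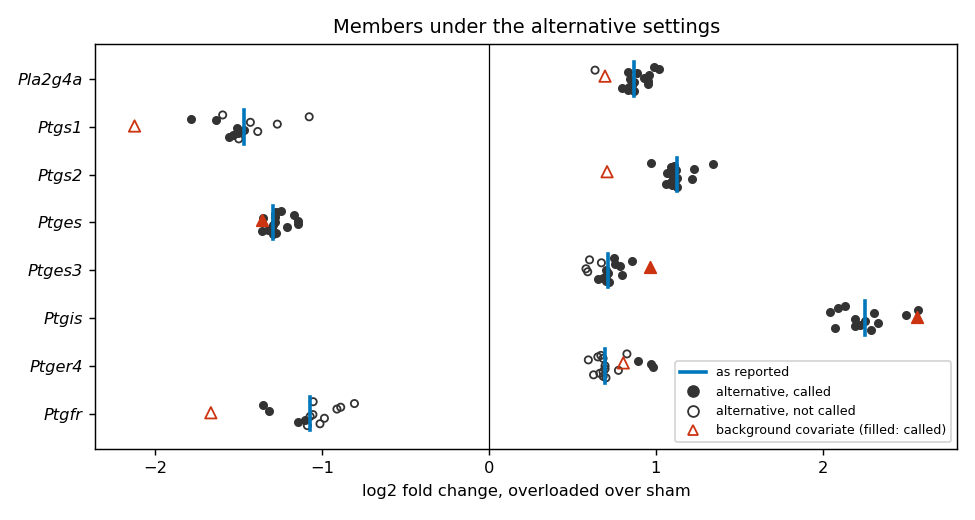
Log2 fold change of the 8 tested genes as reported (blue bar) and under each alternative setting (dots, filled where called at an adjusted p under 0.05, open where not), with the receptor-read covariate as triangles. No gene changes sign. Ptges and Ptgis are called throughout, Ptgs2 is open only at the triangle (0.71), and Ptgs1 is open in 7 of 14 settings.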

How the data were processed

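The deposited table holds the authors' raw counts per gene for 6 libraries, whole numbers without normalisation. The submitters' processing notes list, without their roles, DESeq2 1.28.1, featureCounts 2.0.1, HISAT2 2.2.1 and Trim Galore 0.6.6, and the genome build GRCm38. Not given in the sources used here are the annotation, the collapsing of molecular identifiers, the use of strand in counting and the treatment of reads with several mapping places. The exact intervals on counts cover counting error only. Those of log2 fold changes come from the edgeR fit and also take in variation between libraries.

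The counts were tested with edgeR 4.0.16 in R 4.3.3 (filterByExpr at a minimum count of 10 with a total of at least 15, TMM, robust quasi-likelihood F test, Benjamini-Hochberg adjustment over 7207 genes, called under 0.05). CPM are relative to the counts in tested genes after TMM. A log2 fold change divided by the square root of its F statistic gave its standard error. Ratios within a library used log2(CPM + 1) and an exact permutation test. Alternatives included DESeq2 1.42.0 and limma-voom (limma 3.58.1). Positions are from GENCODE M21 (GRCm38), where all 54100 identifiers were found, and promoter sequences are from RefSeq (GRCm38.p6), which matched 9 of the 10 genes, Ptgis being the exception.

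The genes, lists, motifs and markers were chosen with earlier results of these data known. Named were the 10 genes, up to 4 called genes of each wider list in order of adjusted p, and the 3 genes most like Ptgs2 and Ptges, of which those for Ptges are not reported here. Other genes were named for context after their values were seen. Libraries of one group differed by more than sampling noise (chi-square per degree of freedom 3.75 to 6.61) and were counted as separate samples.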

Additional observations from a re-analysis of the deposited data

How the results depend on the processing

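The directions of the 8 tested genes were the same under every alternative that could test them: DESeq2, limma-voom, library size only, upper quartile factors, a minimum count of 30, no count filter, no robust estimation, thinning to the smallest library, the replicate number as a block with and without thinning, the share of olfactory and vomeronasal receptor reads as a covariate, and leaving out each library. Both ratios kept their direction under the 9 alternatives run for them, pseudocounts of 0.5 and 5 CPM, library size only and leaving out each library. That direction followed from the single genes, which were each fully apart in opposite directions. Ptgs1, Ptgis and Ptgfr could not be tested with a minimum count of 30 or after thinning. The number of the 10 genes called, 6 as reported, ranged from 3 to 7. The receptor-read covariate moved the counts most, to 3 of the 10 genes (2 higher, 1 lower), to 14 genes of the wider lists (4 higher, 10 lower, against 22 as reported) and to 869 of all genes tested (488 higher, 381 lower, against 2111). The cause was not tested, and the covariate itself was lower in overloaded libraries on average. Leaving out 1 library gave 4 to 7 of the 10 genes, 17 to 22 of the wider lists and 1595 to 2019 of all genes tested. Without the count filter Hpgd and Ptger2 had adjusted p of 0.729 and 0.799 by edgeR. With the replicate number as a block 6 of the 10 genes, 23 of the wider lists and 2036 of all genes were called. Deviations from the group mean correlated at 0.016, 0.014 and 0.022 across genes between libraries of the same number, and each library correlated best with its own number, a hint from the data only. Depth limits Hpgd, Ptger2, Ptgs1 and Ptgis most, with 7 to 85 counts each over all libraries.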
